A study of Mus musculus with 7 samples.

Results

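The nuclear genes of the respiratory complexes were compared at the RNA level between 2 populations of haematopoietic stem cells (HSCs) sorted from mouse bone marrow. The set held 92 of the 23284 genes in the count table, taken by symbol: every symbol starting with Nduf, Uqcr, Cox4 to Cox8 or Atp5, together with Sdha, Sdhb, Sdhc, Sdhd, Cyc1 and Cycs. By role, 36 encode subunits of complex I and 4 encode complex I assembly factors. A further 4 belong to complex II, 9 to complex III, 20 to complex IV and 15 to complex V. Cycs encodes cytochrome c, and the remaining 3 genes, Atp5s, Atp5sl and Cox4nb, share a prefix with the subunits but are not counted in a complex here.

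Oxidative phosphorylation takes place at the inner mitochondrial membrane. Complexes I and II pass electrons from NADH and succinate to ubiquinone, complex III hands them to cytochrome c, and complex IV reduces oxygen, while complex V uses the resulting proton gradient to make ATP. Most subunits are encoded in the nucleus, and quiescent HSCs are known for relying more on glycolysis and less on respiration than cycling progenitors. Genes of the mitochondrial genome are not analysed here.

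The Hdc-GFPhi group had 3 libraries and the Hdc-GFPlo group had 4, all from mice on a C57BL/6 background, and each library was made from 500 sorted cells. Hdc encodes histidine decarboxylase, the enzyme that makes histamine, and the comparison asks how HSCs bright for the Hdc-GFP signal differ from dim ones. The labels give the group both as the genotype and as the sorted fraction, except that Hdc-GFPlo replicate 4 has Hdc-GFP- as its sorted fraction. The reporter construct, the age of the mice and the surface markers of the sort were not stated in the labels. Their RNA (PicoPure kit) was amplified as cDNA with a SMARTer Ultra Low Input chemistry that keeps no strand, and sequencing libraries were made with Nextera XT. Nothing in the labels says that the libraries of a group came from separate mice, so the p-values cover the spread among these libraries alone, and that spread could be technical.

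Totals were 21090553 to 23688672 counts in Hdc-GFPhi libraries and 19606124 to 22472061 counts in Hdc-GFPlo libraries. Hdc itself was measured at 37.6, 18.7 and 33.9 CPM (counts scaled to library size) in Hdc-GFPhi libraries, against 16.2, 16.7, 21.6 and 4.44 CPM in Hdc-GFPlo libraries, and the groups overlapped. All 10 HSC marker genes were detected, with a summed level of 2692 to 3022 CPM in Hdc-GFPhi and 3166 to 3425 CPM in Hdc-GFPlo libraries. Markers of other states also varied, and 10 neutrophil genes summed to 5924 to 8249 CPM in Hdc-GFPhi and 2794 to 6832 CPM in Hdc-GFPlo libraries, and 20 mitosis genes summed to 1910 to 2365 CPM in Hdc-GFPhi and 2398 to 3803 CPM in Hdc-GFPlo libraries. Of the mitosis genes 15 were lower in Hdc-GFPhi libraries at an unadjusted p under 0.05 in edgeR, where 7.31% of all genes were. All 10 neutrophil genes were higher in the edgeR fit, 6 at an unadjusted p under 0.05, where 4.92% of all genes were. None of either list passed after adjustment in edgeR. DESeq2 adjusted p-values ran from 8.54e-05 to 0.582 for mitosis genes and from 0.000895 to 0.632 for neutrophil genes. DESeq2 called 2.11% of all genes lower and 0.55% higher at an adjusted p under 0.05. The 6 megakaryocyte genes summed to 805 to 1037 CPM in Hdc-GFPhi and 513 to 830 CPM in Hdc-GFPlo libraries. Hdc-GFPhi replicate 1 stood apart in 4 eosinophil genes, which summed to 709.9, 0.499 and 3.79 CPM in Hdc-GFPhi libraries, against 4.85, 33.4, 13.0 and 9.76 CPM in Hdc-GFPlo libraries. With and without that library, the median log2 fold change (Hdc-GFPhi over Hdc-GFPlo) of the respiratory chain genes was 0.00. That of the complex I assembly factors was 0.01 with it and 0.13 without it. The part of the eosinophil and other markers in the results was not tested. Beside these, 16 skeletal muscle genes, named in a list chosen after seeing the data, summed to 11.1, 30.3 and 159 CPM in Hdc-GFPhi libraries, against 2226, 20642, 11.3 and 12.5 CPM in Hdc-GFPlo replicates 1 to 4. In bulk RNA of this kind, fewer cells of a type and less RNA per cell cannot be told apart.

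As a group, the respiratory chain genes were at nearly equal levels in the 2 populations. The 92 genes summed to 16192 ± 549.9 CPM in Hdc-GFPhi libraries and 16026 ± 976.1 CPM in Hdc-GFPlo libraries (SD, n = 3 and 4), a ratio of 1.01. Of the 88 genes with enough counts to be tested, 45 (51.1%) had a fitted log2 fold change of Hdc-GFPhi over Hdc-GFPlo above 0, beside 51.6% of all 12917 genes tested. The median log2 fold change of the 88 genes was 0.00, beside 0.01 for all genes tested. No member passed an adjusted p of 0.05 in edgeR's quasi-likelihood test, in which 0% of all genes passed, and the smallest adjusted p of a member was 0.269. DESeq2 called 1 member, Cox6a1, as higher, where 0.55% of all genes were called higher and 2.11% lower.

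At an unadjusted edgeR p under 0.05, 3 members were higher in Hdc-GFPhi libraries, Cox6a1, Ndufs7 and Ndufaf3, where 4.92% of all genes were. A further 3 were lower, Cycs, Cox7a1 and Atp5f1, where 7.31% of all genes were. In 5 of the 88 genes, Cox6a1, Ndufs7, Ndufaf3, Cox8a and Atp5l, every Hdc-GFPhi library was above every Hdc-GFPlo library, against 6.02% of all genes. In Cycs and Sdha every Hdc-GFPhi library was below, against 5.87% of all genes. These shares were near the background or under it. The 4 genes that could not be tested had no more than 2 counts in any library.

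The intervals show how large a difference could have been missed. The 95% interval of the fold change, taken as the SE times the t multiplier with 5 degrees of freedom, lay within 1.5-fold either way for 69 of the 88 genes and within 2-fold for 78. The edgeR test uses more degrees of freedom for most genes, so these intervals are wider than its p-values imply. Those of Atp5f1 and Cox7a1 reach past 0, to 0.02 and 0.08, though both had an unadjusted edgeR p under 0.05. The 77 members at 20 CPM or more had a median coefficient of variation of 6.15% among Hdc-GFPhi and 8.96% among Hdc-GFPlo libraries, beside 12.5% and 11.2% for the 8277 genes at that level. Their median absolute log2 fold change was 0.08, beside 0.15 for those genes.

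**Figure D1:**
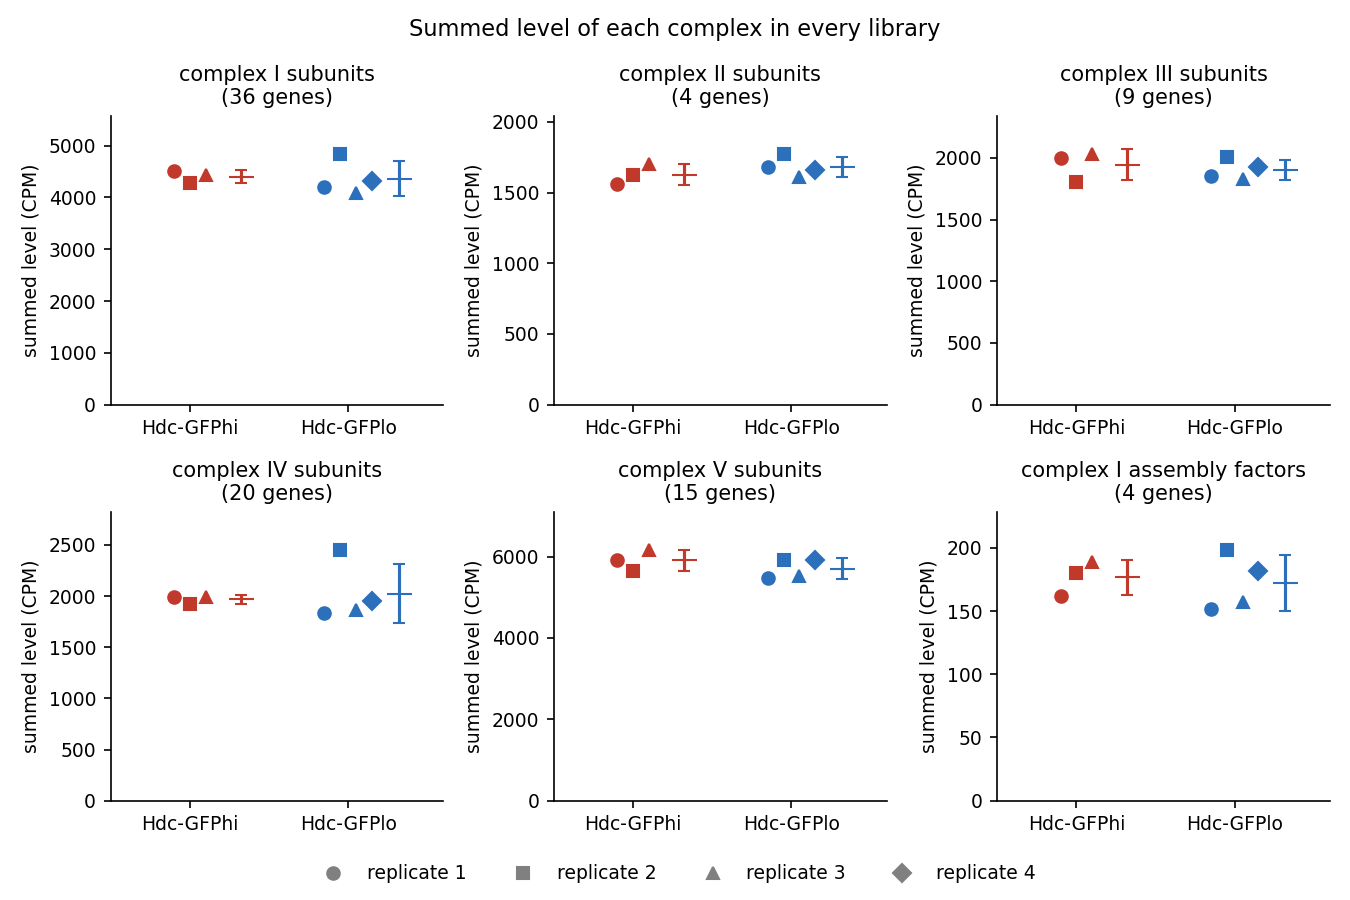
Summed level in CPM (y axis, from 0) of the members of each complex in the 3 Hdc-GFPhi and 4 Hdc-GFPlo libraries, with marker shape giving the replicate and bars giving mean ± SD. The groups overlapped in every panel, and Hdc-GFPlo replicate 2 had the highest complex IV sum, 2451 CPM.

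By complex, no sum separated the groups. Complex I subunits summed to 4404 ± 120.0 CPM in Hdc-GFPhi and 4364 ± 332 CPM in Hdc-GFPlo libraries. Complex II summed to 1627 ± 73.4 CPM in Hdc-GFPhi and 1680 ± 68.1 CPM in Hdc-GFPlo libraries, and complex III to 1944 ± 125 CPM in Hdc-GFPhi and 1904 ± 80.6 CPM in Hdc-GFPlo libraries. The plot of summed levels shows that within each complex the libraries of a group spread about as far as the groups stood apart, or further.

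For complex IV the sums were 1995, 1920 and 1992 CPM in Hdc-GFPhi libraries, against 1838, 2451, 1864 and 1947 CPM in Hdc-GFPlo libraries. Hdc-GFPlo replicate 2 lay far above the rest, and its sum included 414 CPM of tissue isoforms and paralogs, where the other Hdc-GFPlo libraries had 111.5 to 142 CPM. Complex V, the largest sum, stood at 5907 ± 264 CPM in Hdc-GFPhi and 5706 ± 252 CPM in Hdc-GFPlo libraries.

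The median log2 fold change was 0.01 for complex I subunits, 0.02 for complex II and 0.07 for complex V. For complex III it was -0.02 and for complex IV -0.01, and both turned to between 0.01 and 0.03 when libraries were scaled by upper quartile or by total counts, settings that put the median of all genes at 0.04 and 0.05. With the trend over transcript length and GC content removed, all 5 medians were below 0, at -0.16 for complexes I, III and IV, -0.05 for complex II and -0.09 for complex V. Complex V had 11 of its 15 genes above 0 and 4 below, complex III 3 above and 6 below.

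**Figure D2:**
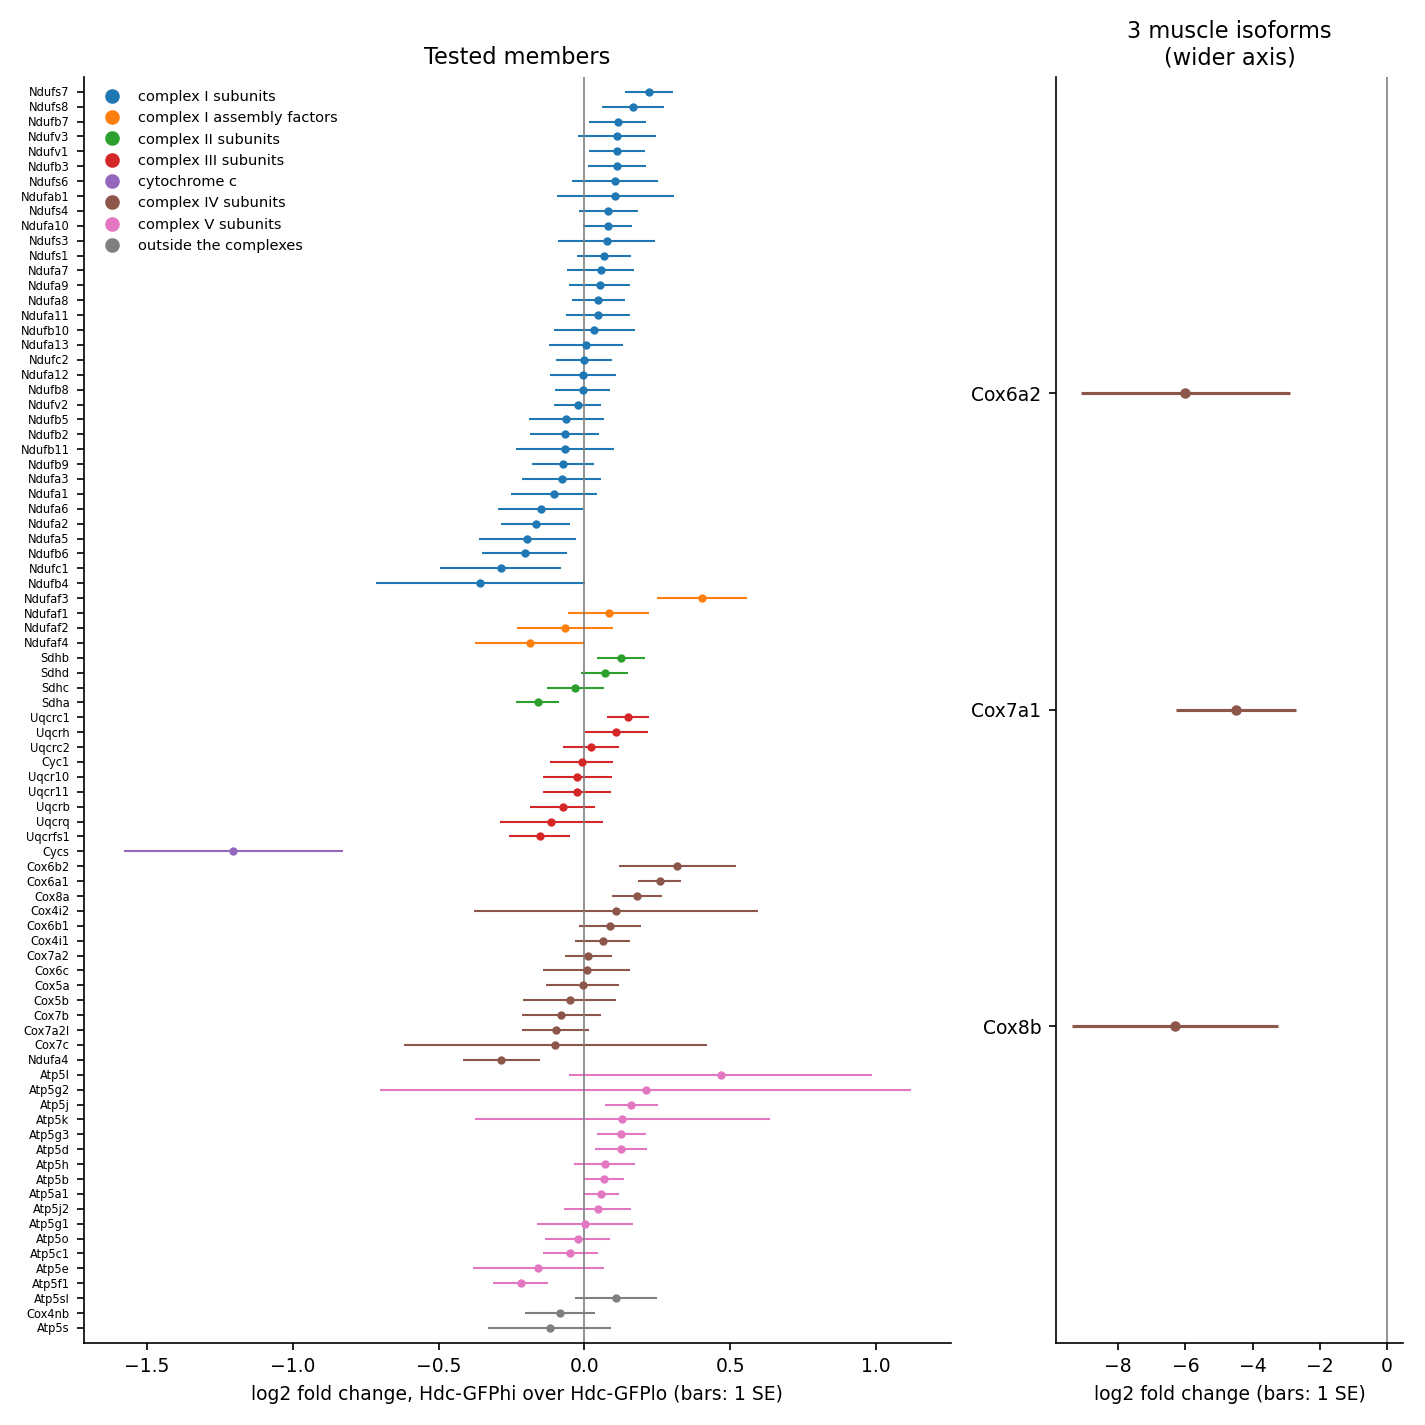
Fitted log2 fold change of Hdc-GFPhi over Hdc-GFPlo (x axis) with 1 SE for the tested members, 1 of the 88 not drawn, coloured by complex, with the 3 muscle isoforms of complex IV on a wider axis at right. Most members lie close to 0, Cycs lies at -1.20, and Cox6a2, Cox7a1 and Cox8b lie between -6.30 and -4.49 with wide errors.

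These values moved with 1 library. Hdc-GFPlo replicate 2 was the highest of the 7 libraries for 49 of the 88 members (55.7%), beside 17.1% of all genes tested. No member was highest in Hdc-GFPlo replicate 1, beside 9.86% of all genes tested. Relative to the other Hdc-GFPlo libraries, replicate 2 was higher for 75 of the 88 members, with a median log2 difference of 0.19, while the median over all genes was 0.00. The excess was 0.26 for members with transcripts under 1000 bases and 0.12 for longer ones. Over all genes of those lengths the medians were -0.03 and -0.0004. This is the library that held most of the skeletal muscle RNA. Without it the members' median log2 fold change was 0.07, beside 0.01 for all genes, and complex medians lay between 0.05 and 0.11. Of 86 members tested there, 65 were above 0, and the share of all genes above 0 was not determined. The part of muscle RNA in this shift was not tested.

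Length and base composition were examined next. Over all genes, transcripts under 1000 bases had a median log2 fold change of 0.13, with 70.7% above 0, beside 0.00 for longer ones. Respiratory chain genes are mostly short, yet the median was 0.00 both for the 54 members under 1000 bases and for the 34 longer ones. When the trend over length and GC content was removed, the median of the members was -0.14, beside -0.02 for all genes. Of the 88 members 15 were above 0 there, and the share of all genes above 0 was not determined. In that fit no member was higher at an unadjusted p under 0.05, where 3.39% of all genes were, and 9 members were lower, where 5.13% of all genes were. None passed after adjustment there. The direction of the whole group therefore depended on the setting, and its median stayed within 0.14 of 0 in each of the fits run.

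Complex I, the NADH dehydrogenase, was represented by 7 nuclear core subunits, which carry the flavin and the iron-sulfur clusters, and 29 accessory subunits. Of the core subunits 5 had fold changes above 0 and 2 below, with a median of 0.08, and of the 28 accessory subunits tested 13 were above and 15 below. Ndufs7, which holds the iron-sulfur cluster next to ubiquinone, was at 214, 207 and 191 CPM in Hdc-GFPhi libraries, against 186, 177, 171 and 165 CPM in Hdc-GFPlo libraries. Every Hdc-GFPhi library was above every Hdc-GFPlo library. The log2 fold change was 0.22 (SE 0.08), with an adjusted p of 0.336 in edgeR's quasi-likelihood test, and it was -0.03 with the length and GC trend removed.

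Ndufs8, another iron-sulfur subunit, had 221, 175 and 189 CPM in Hdc-GFPhi libraries and 182, 158, 165 and 189 CPM in Hdc-GFPlo libraries, so the groups overlapped (log2 fold change 0.17, SE 0.11). Ndufv1, which binds NADH and flavin, had 216, 175 and 202 CPM in Hdc-GFPhi libraries against 192, 168, 181 and 189 CPM in Hdc-GFPlo libraries. Its iron-sulfur partner Ndufv2 was at 259, 264 and 273 CPM in Hdc-GFPhi libraries, against 262, 294, 264 and 257 CPM in Hdc-GFPlo libraries, with a log2 fold change of -0.02 (SE 0.08).

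Among the accessory subunits, which surround the core and are needed for its assembly and stability, no fold change exceeded 0.11 and the lowest was -0.36, for Ndufb4. Ndufb9 and Ndufb8, in the membrane arm, had the highest levels. Ndufb9 was at 273, 245 and 276 CPM in Hdc-GFPhi libraries, against 255, 318, 246 and 295 CPM in Hdc-GFPlo libraries, with its maximum in Hdc-GFPlo replicate 2. The accessory genes Ndufb6, Ndufa2 and Ndufc1 had log2 fold changes of -0.20, -0.17 and -0.29 (SE 0.15, 0.12 and 0.21), and all 3 also peaked in Hdc-GFPlo replicate 2. Ndufc1 stood at 23.3, 26.4 and 25.8 CPM in Hdc-GFPhi libraries, against 26.8, 43.0, 26.8 and 26.2 CPM in Hdc-GFPlo libraries, and without replicate 2 its log2 fold change was -0.08.

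The 4 assembly factors, proteins that help build complex I without staying in it, did not share a direction. Ndufaf3 was at 40.7, 30.3 and 37.6 CPM in Hdc-GFPhi libraries, against 26.6, 29.4, 24.9 and 28.6 CPM in Hdc-GFPlo libraries. All 3 Hdc-GFPhi libraries were above, replicate 2 only narrowly. Its log2 fold change was 0.40 (SE 0.16), with an edgeR adjusted p of 0.347, and it was 0.24 with the length and GC trend removed. Ndufaf4, which acts with Ndufaf3 in early assembly, was at -0.19 (SE 0.19) on the log2 scale, and Ndufaf1 and Ndufaf2 had 0.08 (SE 0.14) and -0.07 (SE 0.16).

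Complex II, succinate dehydrogenase, also belongs to the tricarboxylic acid cycle. Its flavoprotein gene Sdha was at 737, 833 and 862 CPM in Hdc-GFPhi libraries, against 908, 946, 890 and 877 CPM in Hdc-GFPlo libraries. The groups did not overlap, with a gap between 862 and 877 CPM. Sdha had a log2 fold change of -0.16 with an SE of 0.07, and the edgeR adjusted p was 0.421. It was -0.15 with the length and GC trend removed and -0.10 without Hdc-GFPhi replicate 1, the lowest library.

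The other subunits of complex II did not follow Sdha. Sdhb, the iron-sulfur subunit, was at 310, 320 and 323 CPM in Hdc-GFPhi libraries, against 301, 315, 270 and 277 CPM in Hdc-GFPlo libraries, with a log2 fold change of 0.13 (SE 0.08). The membrane anchors Sdhc and Sdhd had log2 fold changes of -0.03 (SE 0.10) and 0.07 (SE 0.08).

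In complex III, Uqcrc1, a core protein of the matrix side, was the most abundant gene. It was at 699, 624 and 695 CPM in Hdc-GFPhi libraries, against 611, 576, 609 and 631 CPM in Hdc-GFPlo libraries. Hdc-GFPhi replicate 2 lay within the Hdc-GFPlo range. The log2 fold change was 0.15 (SE 0.07), and its sign turned to -0.02 with the length and GC trend removed. On the log2 scale, the difference was -0.15 (SE 0.10) for Uqcrfs1, the Rieske iron-sulfur protein, 0.11 (SE 0.11) for Uqcrh, the hinge protein, and 0.02 (SE 0.10) for the core protein Uqcrc2.

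Cytochrome c, the soluble carrier between complexes III and IV, had the lowest fold change outside the muscle isoforms. Cycs was at 3.19, 2.74 and 2.80 CPM in Hdc-GFPhi libraries, from 72, 66 and 59 counts. In Hdc-GFPlo libraries it was at 4.55, 5.75, 8.39 and 8.12 CPM, from 94, 108, 188 and 168 counts. Every Hdc-GFPhi library was below every Hdc-GFPlo library, and Hdc-GFPlo replicates 1 and 2 were the lower ones of their group. The log2 fold change was -1.20 (SE 0.38), with an edgeR adjusted p of 0.296, and across the alternatives that p ran between 0.214 and 0.611. Leaving out single libraries gave -1.35 to -1.08, and DESeq2 gave no adjusted p. Cycs has 4 near-identical copies elsewhere in the genome, so the counted reads may be a small part of its RNA and the value is uncertain.

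**Figure D3:**
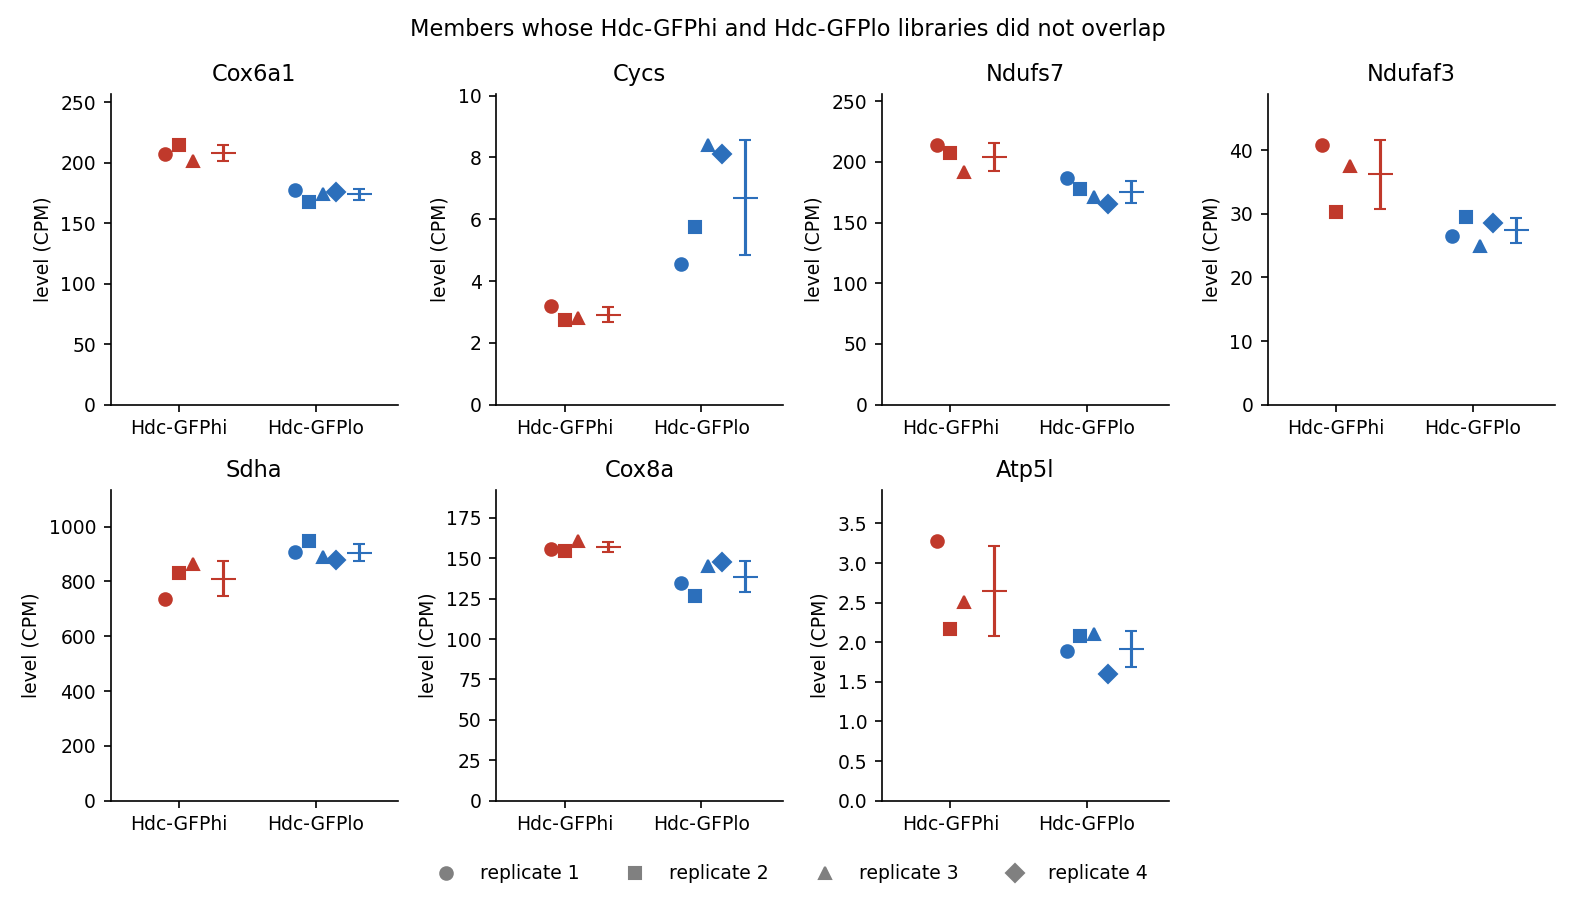
Level in CPM (y axis, from 0) of the 7 members whose Hdc-GFPhi and Hdc-GFPlo libraries did not overlap, with marker shape giving the replicate and bars giving mean ± SD. Cox6a1, Ndufs7, Ndufaf3, Cox8a and Atp5l lie higher in Hdc-GFPhi, and Cycs and Sdha lower.

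Complex IV, cytochrome c oxidase, had 11 ubiquitous nuclear subunits and 9 tissue isoforms or paralogs. Cox6a1, a small subunit near the dimer interface, had the smallest p of all members. It was at 208, 214 and 201 CPM in Hdc-GFPhi libraries, against 178, 167, 174 and 176 CPM in Hdc-GFPlo libraries. The ranges stood clearly apart and each group was tight. The log2 fold change was 0.26 (SE 0.07), higher in 3 of 3 libraries, with an edgeR adjusted p of 0.269. DESeq2 gave an adjusted p of 0.0315, while the other alternatives gave adjusted p-values between 0.209 and 0.950. The highest of these belonged to the fit with the length and GC trend removed, in which the log2 fold change was -0.04. Without both Hdc-GFPlo replicates 1 and 2 it was 0.24.

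Cox8a, another small membrane subunit, was at 156, 155 and 160.5 CPM in Hdc-GFPhi libraries, against 135, 127, 145 and 147.5 CPM in Hdc-GFPlo libraries. The groups did not overlap, with a log2 fold change of 0.18 (SE 0.09) and an edgeR adjusted p of 0.436. With the length and GC trend removed it was -0.12, and without both Hdc-GFPlo replicates 1 and 2 it was 0.10. Ndufa4, first assigned to complex I and now counted with complex IV, lay on the other side. It was at 224, 264 and 276 CPM in Hdc-GFPhi libraries, against 305, 380, 295 and 263 CPM in Hdc-GFPlo libraries, with a log2 fold change of -0.28 (SE 0.13), which was -0.18 without Hdc-GFPlo replicate 2.

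The subunits with tissue isoforms gave the widest differences between libraries. Vertebrates have paired genes for several complex IV subunits, and Cox6a2, Cox7a1 and Cox8b are the forms of heart and skeletal muscle, where Cox6a1, Cox7a2 and Cox8a are made in most tissues. Cox6a2 had 6, 1 and 41 counts in Hdc-GFPhi libraries, against 412, 3162, 0 and 1 counts in Hdc-GFPlo libraries. Cox8b had 1, 4 and 14 counts in Hdc-GFPhi libraries, against 184, 1560, 0 and 0 counts in Hdc-GFPlo libraries. Cox7a1 had 8, 14 and 13 counts in Hdc-GFPhi libraries, against 70, 802, 14 and 9 counts in Hdc-GFPlo libraries. All 3 genes were high in Hdc-GFPlo replicate 2, lower in replicate 1 and at 14 counts or fewer in Hdc-GFPlo replicates 3 and 4, so the groups overlapped.

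The fitted log2 fold changes were -6.00 (SE 3.11) for Cox6a2, -6.30 (SE 3.07) for Cox8b and -4.49 (SE 1.78) for Cox7a1, with edgeR adjusted p-values of 0.504, 0.477 and 0.382. They rested on 2 libraries. For Cox7a1 the log2 fold change was -1.51 without Hdc-GFPlo replicate 2 and -0.04 without replicates 1 and 2. Cox6a2 and Cox8b no longer had enough counts to be tested without either of those libraries.

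**Figure D4:**
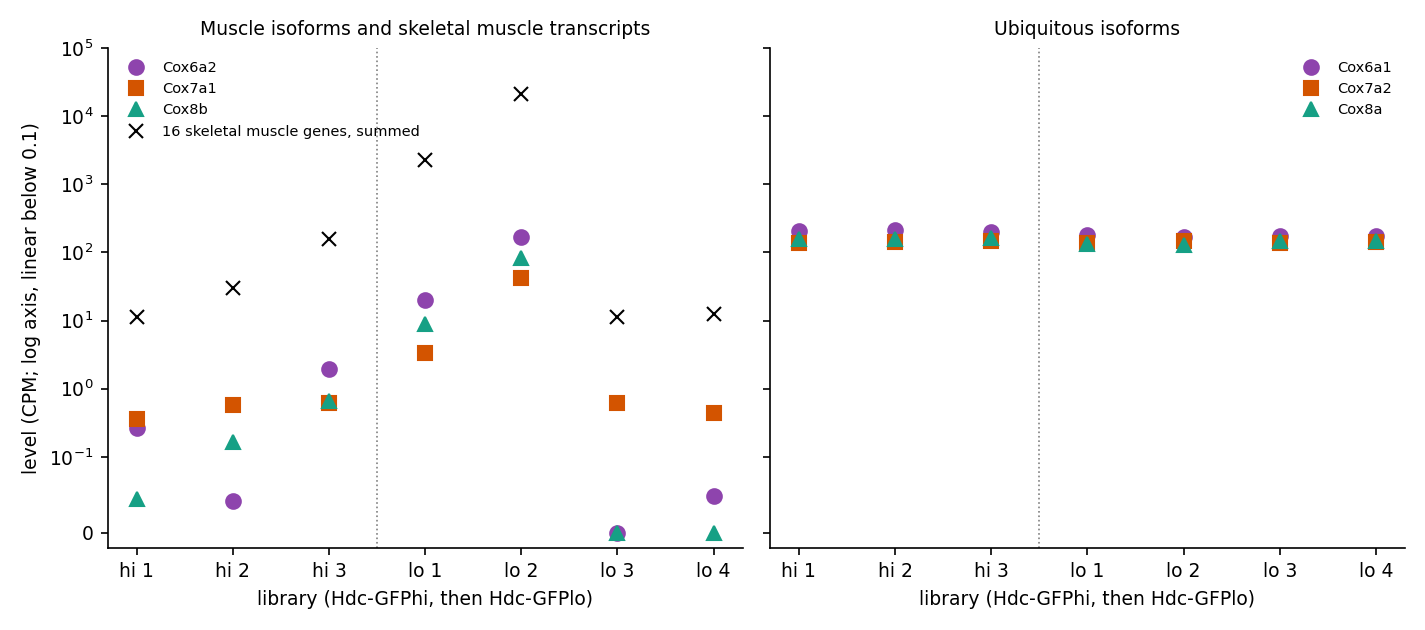
Level in CPM (log y axis, linear below 0.1) in each library of the muscle isoforms of complex IV with the sum of 16 skeletal muscle genes (left) and of the ubiquitous isoforms (right), Hdc-GFPhi before Hdc-GFPlo. The muscle isoforms and the skeletal muscle sum are highest in Hdc-GFPlo replicates 2 and 1, while Cox6a1, Cox7a2 and Cox8a stay within 127 to 214 CPM.

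The libraries high in the 3 muscle isoforms were also those high in other muscle transcripts. In Hdc-GFPlo replicates 1 and 2, Cox6a2 equalled 0.897% and 0.816% of the summed counts of 16 skeletal muscle genes such as Acta1, Ckm and Tnnt3. Cox8b equalled 0.400% and 0.402%, and Cox7a1 0.152% and 0.207%. The muscle sum was 2226 and 20642 CPM in those libraries. In the other 5 libraries, with sums of 11.1 to 159 CPM, the same ratio was 0% to 2.38% for Cox6a2, 0% to 0.549% for Cox8b and 0.388% to 5.53% for Cox7a1, so Cox7a1 did not scale with the muscle sum there. Of 6 heart genes, Myh6, Nppa and Myl7 were at 0 in every library. The ventricular and slow muscle light chain genes were highest in Hdc-GFPlo replicates 1 and 2, Myl2 with 0, 4 and 3 counts in Hdc-GFPhi against 22, 13, 3 and 1 counts in Hdc-GFPlo libraries, and Myl3 with 0 counts in each Hdc-GFPhi library against 16, 33, 0 and 0 counts in Hdc-GFPlo libraries. The remaining heart gene, Tnni3, did not follow them, with 60, 37 and 3 counts in Hdc-GFPhi against 10, 0, 33 and 17 counts in Hdc-GFPlo libraries. The 6 heart genes summed to 0.284 to 2.65 CPM in Hdc-GFPhi and 0.870 to 2.45 CPM in Hdc-GFPlo libraries. Of 6 brown fat genes, Ucp1, Cidea and Plin1 were at 0 in every library and the list summed to 4.93 to 15.1 CPM in Hdc-GFPhi and 8.12 to 12.9 CPM in Hdc-GFPlo libraries. Dio2 was counted in every library, at 4.93 to 11.3 CPM. Adipoq had 3, 136 and 0 counts in Hdc-GFPhi against 32, 12, 0 and 0 counts in Hdc-GFPlo libraries. Elovl3 had 0, 3 and 0 counts against 0, 1, 19 and 0. The skeletal muscle list took 0.223% and 1.98% of all counts in Hdc-GFPlo replicates 1 and 2 and at most 0.0159% in Hdc-GFPhi libraries and 0.00124% in Hdc-GFPlo replicates 3 and 4.

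Per kilobase of transcript, the muscle form made up 45.8% of the Cox6a pair, 30.2% of the Cox7a pair and 50.01% of the Cox8 pair in Hdc-GFPlo replicate 2. In replicate 1 the shares were 8.63%, 3.62% and 9.19%, and in each of the other 5 libraries they were 0.804% or less. The ubiquitous partners did not vary in this way. Cox7a2 was at 138, 143 and 147 CPM in Hdc-GFPhi libraries, against 136, 148, 138 and 143 CPM in Hdc-GFPlo libraries (log2 fold change 0.01, SE 0.08).

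The remaining pairs showed HSC libraries in which the ubiquitous form dominated throughout. Cox4i2, the lung-enriched form of subunit IV, made up 0.461% to 0.801% of the pair with Cox4i1 per kilobase over the 7 libraries. Cox6b2, known from testis, made up 7.44% to 11.5% of the pair with Cox6b1, at 29.6, 26.3 and 21.6 CPM in Hdc-GFPhi libraries and 17.4, 19.97, 18.8 and 26.7 CPM in Hdc-GFPlo libraries. Its log2 fold change was 0.32 (SE 0.20) and was -0.01 with the length and GC trend removed. Cox7a2l, a paralog of Cox7a2, differed by -0.10 (SE 0.11) on the log2 scale, and Cox7b by -0.08 (SE 0.14). Cox7b2 had no count in any library, Cox8c had 2 counts in Hdc-GFPlo replicate 2 and Ndufa4l2 had 2 counts in Hdc-GFPlo replicate 1, both under the limit of 3 counts.

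Promoters of these subunits are shown because the muscle isoforms varied over a much wider range of levels than their ubiquitous counterparts. That of Cox6a2 is not shown. Each stretch is 300 bases from RefSeq on GRCm38.p6, with 250 bases before the annotated start and 50 after it, written 5′ to 3′ on the gene's strand. They are Cox6a1 (chr5:115348909-115349208, minus), Cox7a2 (chr9:79759804-79760103, minus), Cox8a (chr19:7217567-7217866, minus), Cox7a1 (chr7:30183921-30184220, plus) and Cox8b (chr7:140900397-140900696, minus). Capitals mark matches on either strand to GCGCA, any base, then GCGC (the motif of NRF1), CCGGAAG (bound by ETS factors, among them GABP), AANATGGCG (YY1) or TATAAA.
Cox6a1: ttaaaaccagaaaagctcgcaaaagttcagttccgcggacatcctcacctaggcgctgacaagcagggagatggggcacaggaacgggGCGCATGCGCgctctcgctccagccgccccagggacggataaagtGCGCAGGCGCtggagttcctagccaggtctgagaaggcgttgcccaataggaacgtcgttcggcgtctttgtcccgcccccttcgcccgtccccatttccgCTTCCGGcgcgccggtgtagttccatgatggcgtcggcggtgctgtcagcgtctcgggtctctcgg
Cox7a2: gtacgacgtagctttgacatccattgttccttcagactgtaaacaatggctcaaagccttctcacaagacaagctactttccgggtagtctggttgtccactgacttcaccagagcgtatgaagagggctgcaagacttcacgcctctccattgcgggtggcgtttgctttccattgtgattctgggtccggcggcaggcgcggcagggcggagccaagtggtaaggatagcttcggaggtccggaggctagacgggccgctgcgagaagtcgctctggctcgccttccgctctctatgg
Cox8a: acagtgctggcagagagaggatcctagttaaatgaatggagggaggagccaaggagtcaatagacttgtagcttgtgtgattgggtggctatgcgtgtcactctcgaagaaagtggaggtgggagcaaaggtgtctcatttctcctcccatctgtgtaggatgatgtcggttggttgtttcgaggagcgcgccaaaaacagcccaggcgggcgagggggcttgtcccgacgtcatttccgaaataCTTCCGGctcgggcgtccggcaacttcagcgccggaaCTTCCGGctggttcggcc
Cox7a1: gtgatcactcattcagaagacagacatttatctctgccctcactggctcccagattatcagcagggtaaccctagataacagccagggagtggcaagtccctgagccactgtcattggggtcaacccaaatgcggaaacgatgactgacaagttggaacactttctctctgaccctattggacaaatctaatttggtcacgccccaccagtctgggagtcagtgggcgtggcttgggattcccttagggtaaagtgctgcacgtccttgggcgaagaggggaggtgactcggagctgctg
Cox8b: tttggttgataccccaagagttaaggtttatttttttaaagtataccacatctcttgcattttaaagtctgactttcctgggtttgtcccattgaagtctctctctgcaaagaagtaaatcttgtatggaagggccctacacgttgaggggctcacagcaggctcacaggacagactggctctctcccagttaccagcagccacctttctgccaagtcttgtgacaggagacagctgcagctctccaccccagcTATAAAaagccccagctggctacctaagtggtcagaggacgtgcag
The Cox6a1 window held a pair of NRF1 matches and 1 ETS match, and the Cox8a window a pair of ETS matches. The Cox7a2 and Cox7a1 windows held no match to these letters, and the Cox8b window held 1 TATAAA match.

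NRF1, GABP and YY1 are known regulators of nuclear respiratory genes. A RefSeq promoter was matched for 75 of the 92 members. The NRF1 letters occurred in 17 of them (22.7%), beside 4.78% of all 27025 promoters. The ETS letters occurred in 16 (21.3%), beside 9.12%, and the YY1 letters in 9, beside 2.51%. In all, 37 of the 75 (49.3%) held at least 1 of these, beside 14.7% of all promoters, while TATAAA occurred in 7 (9.33%), beside 14.2%. In these members' promoters, no NRF1, ETS or YY1 match overlapped a match to another of those motifs. A match describes the letters in the window only.

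Complex V, the ATP synthase, had the most abundant members. Atp5b, the catalytic beta subunit, was at 2279, 2252 and 2578 CPM in Hdc-GFPhi libraries, against 2158, 2206, 2261 and 2417 CPM in Hdc-GFPlo libraries. The log2 fold change was 0.07 (SE 0.07), with a 95% interval from -0.11 to 0.24. For Atp5a1, the alpha subunit, it was 0.06 (SE 0.06). The 5 genes of the F1 head had a median of 0.06, with 3 above 0 and 2 below.

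The 10 genes of the membrane part and stalk had a median of 0.10, with 8 above 0 and 2 below. One of the 8, Atp5g1, was at 0.00 and fell on either side of 0 across the alternatives. The 2 below were Atp5o, the stalk subunit OSCP, at -0.02 (SE 0.11), and Atp5f1, subunit b of the peripheral stalk. Atp5f1 was at 230, 220.5 and 249 CPM in Hdc-GFPhi libraries, against 244.5, 301, 269 and 271 CPM in Hdc-GFPlo libraries. The groups overlapped only through Hdc-GFPhi replicate 3. Its log2 fold change was -0.22 (SE 0.09), with an edgeR adjusted p of 0.391, and -0.26 with the length and GC trend removed. Atp5f1 has 1 near-identical copy. Atp5j, another stalk subunit, was at 322, 302 and 285 CPM in Hdc-GFPhi libraries, against 270, 303, 256 and 254 CPM in Hdc-GFPlo libraries (log2 fold change 0.16, SE 0.09, and -0.07 with the trend removed).

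The proton-carrying c ring is encoded by 3 genes that give the same mature protein. The most counts fell on Atp5g3, at 449, 403.5 and 417 CPM in Hdc-GFPhi libraries and 377, 411, 353 and 410 CPM in Hdc-GFPlo libraries. Its log2 fold change was 0.13 (SE 0.09). Per kilobase Atp5g3 averaged 561 CPM, against 21.9 for Atp5g1 and 1.001 for Atp5g2, both of which have near-identical copies, so the shares of the 3 genes are uncertain. Atp5l, subunit g, was low at 3.27, 2.16 and 2.51 CPM in Hdc-GFPhi libraries, against 1.89, 2.08, 2.10 and 1.59 CPM in Hdc-GFPlo libraries. Its groups did not overlap, yet the log2 fold change of 0.47 was smaller than its SE of 0.52, and the gene has 8 near-identical copies.

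The 3 genes outside the complexes had log2 fold changes of 0.11 for Atp5sl, -0.08 for Cox4nb and -0.12 for Atp5s, and none passed an unadjusted p of 0.05.

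**Figure D5:**
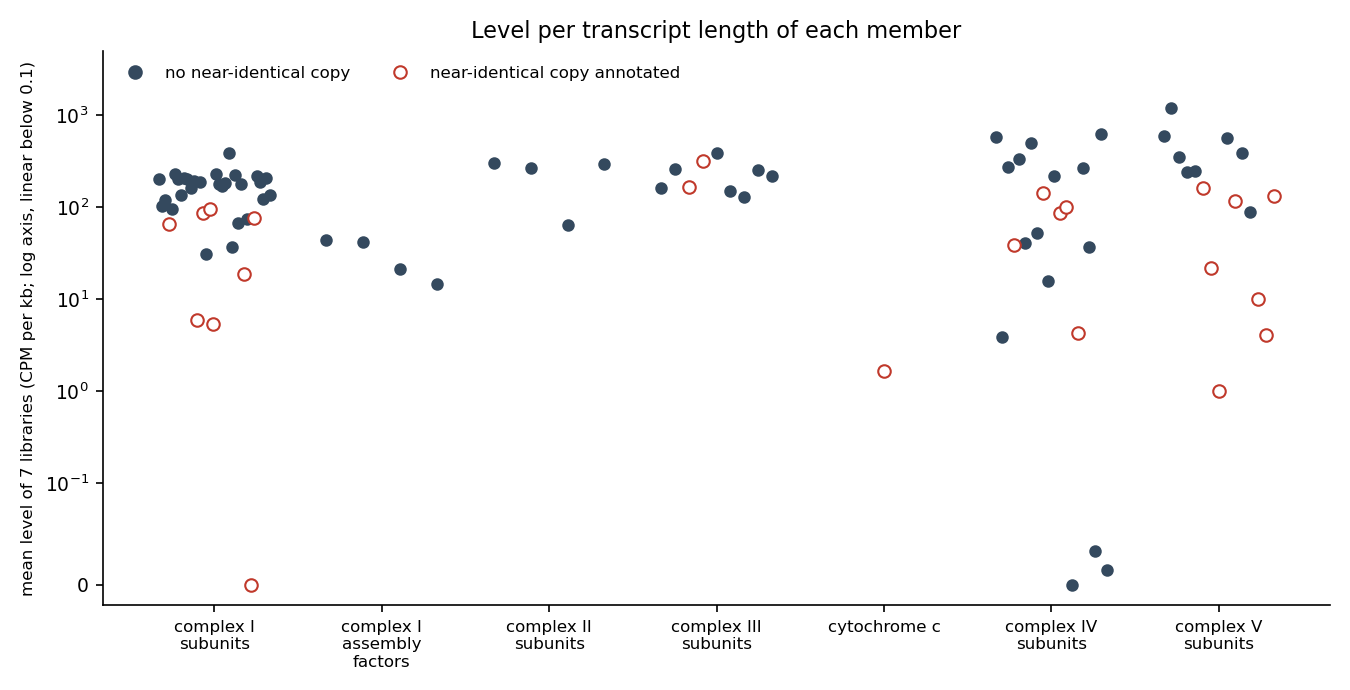
Mean level over the 7 libraries in CPM per kilobase (log y axis, linear below 0.1) of each member by complex, with open circles for genes that have a near-identical copy in the genome. Leaving out tissue isoforms, members without a copy have a median of 202 CPM per kilobase, and most of the low ones carry a copy. The tissue isoforms Cox7b2, Ndufa4l2, Cox8c and Cox4i2 are low without a copy.

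Levels within a complex, compared per kilobase of transcript, ranged widely, and apart from tissue isoforms the low ones were mostly genes with copies. Near-identical copies were annotated for 23 of the 92 members. Without the tissue isoforms and the genes that share only a prefix, 58 members without a copy had a median of 202 CPM per kilobase and 22 members with a copy 51.9. Of the 80, 10 were under 20 CPM per kilobase, and 9 of these had a copy: Ndufs5, Atp5g2, Cycs, Atp5l, Cox7c, Ndufb4, Ndufab1, Atp5k and Ndufs3. The exception was Ndufaf4, at 14.7.

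Ndufs5, an accessory subunit of complex I, had 0 counts in every library. Its copy BC002163 had 612, 707 and 606 counts in Hdc-GFPhi libraries, against 545, 644, 604 and 568 counts in Hdc-GFPlo libraries. Counts of genes and their copies may be split in such tables, so the levels of the members with copies are uncertain. Among the 22 tested members with copies, 10 had fold changes above 0 and 12 below, and of the 66 without copies 35 and 31.

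Genes around the complexes were described from other lists. Of 28 tested assembly factors outside the prefixes, 16 were above 0 and 12 below (median 0.03). Foxred1, which helps assemble complex I, was at 84.2, 84.9 and 84.97 CPM in Hdc-GFPhi libraries, against 69.8, 64.2, 68.9 and 67.8 CPM in Hdc-GFPlo libraries. The groups did not overlap, and the log2 fold change was 0.32 (SE 0.10), with an adjusted p of 0.281 in edgeR and 0.0447 in DESeq2. It was the only gene of the list with an unadjusted edgeR p under 0.05, where 4.92% of all genes were higher. Uqcc, an assembly factor of complex III, differed by -0.19 (SE 0.11) on the log2 scale. From a short list of genes with other names, of which 3 were tested, the subunit genes 2010107E04Rik and Usmg5 were at -0.02 and 0.03.

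The tricarboxylic acid cycle feeds the chain with NADH and succinate. Its list, which also held genes of pyruvate dehydrogenase and its kinases, had 7 of 22 genes above 0 and 15 below (median -0.04). Of the list 3 were lower at an unadjusted p under 0.05, where 7.31% of all genes were. Idh3a, a subunit of the NAD-dependent isocitrate dehydrogenase, was at 220.2, 223 and 237 CPM in Hdc-GFPhi libraries, against 263, 299, 280 and 271 CPM in Hdc-GFPlo libraries. The groups did not overlap, and the log2 fold change was -0.30 (SE 0.08), with an adjusted p of 0.244 in edgeR and 0.0157 in DESeq2. The other subunits of that enzyme lay on the other side, Idh3b at 0.20 (SE 0.10), with every Hdc-GFPhi library above every Hdc-GFPlo library by a narrow margin, and Idh3g at 0.10 (SE 0.08) with overlapping groups. Dld, the lipoamide dehydrogenase shared by several enzyme complexes, differed by -0.32 (SE 0.10) on the log2 scale, with an edgeR adjusted p of 0.305. The third was Pdk4, a kinase that inhibits pyruvate dehydrogenase, with 43, 116 and 115 counts in Hdc-GFPhi libraries against 535, 576, 157 and 90 counts in Hdc-GFPlo libraries. It was highest in Hdc-GFPlo replicates 1 and 2, the libraries with muscle transcripts, and its log2 fold change was -2.06 (SE 0.70), with an adjusted p of 0.307 in edgeR and 0.0366 in DESeq2. The part of muscle RNA in this value was not tested.

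Among transcriptional regulators of mitochondrial genes, 2 of 10 were above 0 and 8 below (median -0.10), and 2 were lower at an unadjusted p under 0.05, where 7.31% of all genes were. Gabpb1, the beta subunit of GABP, was at 203, 206 and 214 CPM in Hdc-GFPhi libraries, against 239, 281, 277 and 255 CPM in Hdc-GFPlo libraries. The groups did not overlap, and the log2 fold change was -0.34 (SE 0.09), with an adjusted p of 0.235 in edgeR and 0.0100 in DESeq2. Ppargc1a, a coactivator of mitochondrial biogenesis, was at 0.973, 2.25 and 0.759 CPM in Hdc-GFPhi libraries, against 4.85, 1.44, 8.03 and 4.16 CPM in Hdc-GFPlo libraries. It overlapped through Hdc-GFPlo replicate 2 (log2 fold change -1.79, SE 0.69, edgeR adjusted p 0.347).

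Mitochondrial DNA maintenance and transcription had 9 of 13 genes above 0 and 4 below (median 0.13). Polrmt, the mitochondrial RNA polymerase, differed by 0.34 (SE 0.15) on the log2 scale and was the 1 gene of that list with an unadjusted p under 0.05 (4.92% of all genes were higher), and Ssbp1, the single-stranded DNA binding protein, had 0.28 (SE 0.16). Other electron entry points and carriers had 13 of 22 genes above 0 and 9 below (median 0.04). Etfa and Etfb, the subunits of the electron transfer flavoprotein, had log2 fold changes of -0.24 (SE 0.11) and 0.14 (SE 0.08). No gene of these lists passed an adjusted p of 0.05 in edgeR.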

How the data were processed

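RNA of sorted bone marrow HSCs was sequenced, 1 library per sample, and genes were given by symbol. The deposited values were raw read counts per gene, which the authors made with bcl2fastq 1.8.4, TopHat2 (version 2.0.4, also written 2.04), Bowtie2, HTSeq 0.6.1 and the mouse build mm9, per the submitters' processing notes. Neither the gene annotation nor the strand setting or read filters of that step were stated there. The labels mention no molecular identifiers, so amplification duplicates remain in the counts. Shares and limits cover counting error only.

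Each column was matched to a sample by its library code, and the titles gave its group and replicate number. In R 4.3.3, edgeR 4.0.16 kept genes with filterByExpr (minimum count 10), scaled libraries by TMM and ran the robust quasi-likelihood F test on group alone, adjusting p-values by Benjamini-Hochberg over 12917 genes at a threshold of 0.05. An SE is the log2 fold change divided by √F. Levels, written CPM, are counts scaled to the TMM library size. A limit of 3 counts equalled 0.125 to 0.142 CPM in Hdc-GFPhi and 0.134 to 0.160 CPM in Hdc-GFPlo libraries, and the common biological coefficient of variation was 35.3%. Replicates of a group differed beyond sampling noise, at 25.8 to 143 chi-square units per degree of freedom for the pairs. Transcript lengths (22824 genes), GC content and near-identical copies (at least 95% identity over at least 90% of the coding sequence) came from GENCODE annotation of GRCm38, a newer build than that of the files, so no coordinates are given for the counts.

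Alternatives were other scalings, other filters, DESeq2 1.42.0, limma 3.58.1 (voom with quality weights), the test with no robust setting, a fit with the trend over transcript length and GC content removed, a replicate block and each library left out. Omitting both Hdc-GFPlo replicates 1 and 2, and the skeletal muscle, heart muscle and brown fat lists, were chosen after seeing the data. The members and lists were chosen with earlier results of these data known. Genes named are, per class, the 3 of smallest p and the 2 of highest level, all those with an unadjusted p under 0.05 or with separate groups, the isoform sets, Cycs, and the 2 of smallest p of each other list. The remaining genes named, Ndufb4, Ndufab1, Cox7c, Atp5k, Ndufs3, Atp5o, Idh3b, Idh3g, Pdk4, Myl2, Myl3 and the promoter examples, were picked after their values were seen. So were Tnni3, Dio2, Adipoq and Elovl3. The values of 1 member that this rule names are not reported here.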

Additional observations from a re-analysis of the deposited data

Results flagged for a closer look

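Of 55 genes and sums examined, 8 had 1 Hdc-GFPlo library that exceeded Dixon's critical value at the 95% level. The measure is the gap to the nearest other library, divided by the range of the 4 libraries. For normally distributed values chance alone gives about 1 in 20 groups. The share of all genes past that value was not determined. Hdc-GFPlo replicate 2 stood apart in 7 of the 8. The ratio was 0.8814 for Cox6a2, at 168 CPM against 0 to 19.96 CPM in the other Hdc-GFPlo libraries. It was 0.9301 for Cox7a1, at 42.7 CPM against 0.435 to 3.39 CPM, and 0.8927 for Cox8b, at 83.1 CPM against 0 to 8.92 CPM. These 3 muscle isoforms moved with the skeletal muscle transcripts of that library, and the same library stood apart in 3 subunits made in most tissues. Those were Atp5g1 with a ratio of 0.8631, at 76.6 CPM against 50.4 to 54.0 CPM, Ndufa2 with 0.9502, at 164 CPM against 125 to 127 CPM, and Ndufc1 with 0.961, at 43.0 CPM against 26.2 to 26.8 CPM. Cox8c (ratio 1) was counted only in that library and Ndufa4l2 (ratio 1) only in Hdc-GFPlo replicate 1, at 0.107 and 0.0969 CPM from 2 counts each, under the limit that 3 counts set. Their ratio is fixed at 1 because every other Hdc-GFPlo library had 0 counts.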

How the results depend on the processing

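Across the alternatives run, the members' median log2 fold change lay between -0.14 and 0.07. No alternative other than DESeq2 called a gene, while DESeq2 called 344 genes and 1 member, Cox6a1. In place of 3 members higher at an unadjusted p under 0.05 there were 5 with upper-quartile scaling, 6 with library totals, 0 with the length and GC trend removed, and 1 with Hdc-GFPhi replicate 1 and Hdc-GFPlo replicate 4 both left out. Leaving out single libraries gave 1 to 4. In place of 3 lower members there were 6 in DESeq2, 9 with the trend removed, 1 with that pair of libraries left out, 1 with Hdc-GFPlo replicates 1 and 2 left out, and 1 to 5 with single libraries left out. With the trend removed, medians were -0.16 for complex I subunits, -0.048 for complex II, -0.16 for complex III, -0.16 for complex IV and -0.086 for complex V. Omitting Hdc-GFPlo replicates 1 and 2 put the complex III median at 0.074, and omitting the pair named first put the assembly factor median at 0.15. The cause was not tested for any of these.

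Same-numbered libraries did not deviate together (correlations of -0.06, -0.01 and -0.14). So few pairs cannot settle whether the numbers pair the samples. With the number as a replicate block, 0 members passed after adjustment, 1 higher and 2 lower members had an unadjusted p under 0.05, and Atp5g1 was at -0.024.

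Of the 43 named members tested, 26 changed sign in some fit. With the length and GC trend removed, log2 fold changes turned to -0.0011 for Atp5b, -0.046 for Atp5g2, -0.023 for Atp5g3, -0.070 for Atp5j, -0.19 for Cox4i1, -0.13 for Cox4i2, -0.036 for Cox6a1, -0.12 for Cox6b1, -0.0071 for Cox6b2, -0.16 for Cox7a2, -0.12 for Cox8a, -0.028 for Ndufs7, -0.018 for Ndufs8, -0.052 for Ndufv1, -0.034 for Sdhb, -0.0018 for Sdhd, -0.019 for Uqcrc1 and -0.095 for Uqcrh, and to 0.075 for Ndufaf4 and 0.049 for Ndufv2. Library totals gave 0.031 for Ndufb8, 0.014 for Ndufv2 and 0.0063 for Sdhc, and upper-quartile scaling gave 0.024 for Ndufb8 and 0.0063 for Ndufv2. Ndufb8 was at 0.00092 with a stricter filter and 0.0075 in limma. Atp5g1 was at -0.0054 with DESeq2 size factors, -0.0058 with no filter and -0.0053 in DESeq2. Omitting Hdc-GFPhi replicate 1 and Hdc-GFPlo replicate 4 gave -0.10 for Atp5g1 and 0.070 for Ndufaf2. Omitting Hdc-GFPlo replicates 1 and 2 gave -0.028 for Atp5g2, -0.096 for Cox4i2, 0.057 for Ndufb8, 0.020 for Ndufv2 and -0.017 for Uqcrc2. Leaving out single libraries gave -0.0051 to 0.10 for Atp5b, -0.063 to 0.15 for Atp5g1, -0.0025 to 0.13 for Cox4i1, -0.057 to 0.27 for Cox4i2, -0.016 to 0.038 for Cox7a2, -0.17 to 0.029 for Cox7b, -0.16 to 0.067 for Ndufaf2, -0.048 to 0.057 for Ndufb8, -0.053 to 0.018 for Ndufv2, -0.075 to 0.034 for Sdhc and -0.034 to 0.088 for Uqcrc2. Cox6a2 and Cox8b could not be fitted with the stricter filter or without Hdc-GFPlo replicate 1 or 2, and Cox7a1 not with the stricter filter, which left 79 members. Depth limits the genes under about 5 CPM, among them Cycs, Cox7c, Atp5k, Atp5l and Atp5g2.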
